A study of Mus musculus with 6 samples.

Results

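The genes described here are the synthases that turn arachidonic acid into prostanoids and the receptors that read prostaglandin E2, as they were expressed in liver F4/80-positive cells. The members were chosen by gene symbol and are the cyclooxygenases *Ptgs1* and *Ptgs2*, the terminal synthases *Hpgds*, *Tbxas1*, *Ptges*, *Ptges2* and *Ptges3*, and the receptors *Ptger2*, *Ptger3* and *Ptger4*. They are 10 of the 49315 genes in the count tables, and 9 of them had enough reads to be tested. The cells came from 3 WT and 3 Lpcat3 KOMac mice, with 1 RNA-seq library per mouse. The WT mice were *Lpcat3* fl/fl; *LysM* +/+ littermates and the Lpcat3 KOMac mice were *Lpcat3* fl/fl; *LysM* Cre/+, so that both genotypes carry the floxed *Lpcat3* alleles and only the second carries Cre. *LysM* Cre acts in myeloid cells in general, not in Kupffer cells alone. All animals were on the C57BL/6N background, received no treatment and were fed a high-fat diet (HFD, 60% fat) for 16 weeks, and the labels give neither the sex nor the age of each mouse. F4/80 is a surface protein of macrophages, and the cells were taken with anti-F4/80 beads from liver cells left after the hepatocytes had been spun down.

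The targeted gene *Lpcat3*, which encodes the enzyme that loads arachidonic acid into phospholipids, measured 85.0, 66.2 and 61.2 CPM in WT against 19.5, 33.3 and 19.4 CPM in Lpcat3 KOMac mice. CPM are read counts scaled to library size, here with TMM factors, and values of single mice are always given in the order of their numbers, 1 to 3. All 3 Lpcat3 KOMac mice were below all 3 WT mice, and edgeR's quasi-likelihood test gave a difference of -1.56 on the log2 scale (standard error 0.26, adjusted p = 1). Total counts per library were between 44954224 and 71392812. The summed level of 9 Kupffer cell markers was between 26000 and 45171 CPM, none of them was at the floor of 3 counts, and 2 of the 9, *Clec4f* and *C1qa*, were lower in every Lpcat3 KOMac mouse than in every WT mouse, as were 5.2% of all genes tested. Single markers varied more than the sum. In Lpcat3 KOMac mouse 2, *Marco* was at 148 CPM, against 999 to 3168 CPM in every other mouse. *Timd4* was at 123 CPM there, against 344 to 938 CPM. The summed level of 5 hepatocyte markers was 19105, 1782 and 1752 CPM in WT mice 1 to 3 and 4543, 12599 and 4468 CPM in Lpcat3 KOMac mice 1 to 3, so that WT mouse 1 and Lpcat3 KOMac mouse 2 stood apart from the other 4. Sinusoidal endothelial markers summed to between 1466 and 2079 CPM, stellate cell markers to between 55.4 and 202 CPM and monocyte markers to between 74.0 and 142 CPM, each overlapping between the genotypes. The same held for markers of platelets, which themselves express *Ptgs1* and *Tbxas1*, at 12.4 to 28.1 CPM, and for those of T, NK and B cells, at 3.17 to 5.01 CPM. Most of the platelet sum was *Pf4* (11.1 to 26.2 CPM), while *Gp9* and *Gp1bb* had at most 11 and 4 counts in a library. In such a mixed preparation, fewer cells of one type and less RNA per cell cannot be told apart.

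Cyclooxygenases convert arachidonic acid freed from membrane phospholipids into prostaglandin H2, and the terminal synthases turn this unstable intermediate into prostaglandin D2, thromboxane A2 or prostaglandin E2. Prostaglandin E2 acts on cell-surface receptors, of which EP2 and EP4 raise cAMP through Gs and EP3 lowers it through Gi. Kupffer cells are known as a main source of prostanoids in the liver, and the prostanoids they release act on neighbouring hepatocytes as well as on the macrophages themselves.

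Promoter windows of the cyclooxygenases and of the prostaglandin D2 and thromboxane synthases are shown. In the levels described below, *Ptgs1* is the highest member, *Ptgs2* is among the lowest, and the other pair are among the highest synthases. Each window covers 250 bases before to 50 bases after the RefSeq start on GRCm38.p6, written in the direction of the gene, and all 10 members had such a window. Capitals mark exact matches, on either strand, to 5 motifs. The GC box (GGGCGG) and the CCAAT box (CCAAT) were also searched but are not marked. PU.1, a factor that directs macrophage genes, is represented by the core GAGGAAG of its site. The shared core of cAMP response elements is searched as TGACG, so that a match on the opposite strand appears in reverse complement. The E-box, bound by many helix-loop-helix factors, is searched as CACGTG in its palindromic form. The TATA box, which places the start of transcription in some promoters, is searched as TATAAA on both strands. The palindrome bound by C/EBP factors, which direct genes of inflammation, is searched as TTGCGCAA. The motifs were chosen after the sequences had been seen, and no test was made of them.
*Ptgs1* (chr2:36230176-36230475, plus strand): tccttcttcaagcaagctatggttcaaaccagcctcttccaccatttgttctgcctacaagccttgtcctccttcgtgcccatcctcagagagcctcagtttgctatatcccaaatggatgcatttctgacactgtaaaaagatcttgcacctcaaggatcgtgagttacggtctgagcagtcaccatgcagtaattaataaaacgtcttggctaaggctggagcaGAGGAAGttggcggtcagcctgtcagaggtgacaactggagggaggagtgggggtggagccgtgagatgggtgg
*Ptgs2* (chr1:150099781-150100080, plus strand): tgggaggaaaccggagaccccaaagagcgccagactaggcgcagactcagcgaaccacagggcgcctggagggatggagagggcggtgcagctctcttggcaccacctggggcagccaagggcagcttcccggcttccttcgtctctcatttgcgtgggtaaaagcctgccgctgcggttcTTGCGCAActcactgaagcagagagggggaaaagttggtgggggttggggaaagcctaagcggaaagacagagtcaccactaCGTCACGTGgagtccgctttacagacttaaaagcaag
*Hpgds* (chr6:65144681-65144980, minus strand): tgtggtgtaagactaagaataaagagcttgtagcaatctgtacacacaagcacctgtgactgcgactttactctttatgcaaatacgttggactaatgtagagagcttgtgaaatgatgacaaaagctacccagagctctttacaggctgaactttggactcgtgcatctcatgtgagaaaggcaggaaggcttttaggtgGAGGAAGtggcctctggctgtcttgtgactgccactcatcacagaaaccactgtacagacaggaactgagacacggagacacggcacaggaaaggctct
*Tbxas1* (chr6:38918736-38919035, plus strand): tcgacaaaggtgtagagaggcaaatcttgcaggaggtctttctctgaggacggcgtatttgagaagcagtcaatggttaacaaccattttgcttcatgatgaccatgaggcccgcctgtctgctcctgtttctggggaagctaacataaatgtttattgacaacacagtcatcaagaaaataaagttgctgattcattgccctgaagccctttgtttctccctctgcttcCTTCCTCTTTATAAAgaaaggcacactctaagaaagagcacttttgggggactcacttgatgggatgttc
GAGGAAG was found in the windows of *Ptgs1*, *Hpgds* and *Tbxas1* and in no other member's window, against 13.6% of the 32851 windows of the same length. The match begins 24 bases before the start in *Ptgs1*, 49 bases before in *Hpgds* and, on the other strand, 20 bases before in *Tbxas1*, where 2 TATAAA matches that overlap each other follow directly. TATAAA was in 13.6% of all windows. The *Ptgs2* window held TTGCGCAA 69 bases before the start, a run present in 0.183% of all windows. It also held the cAMP response element core, found in 20.8% of all windows, and just after the start an E-box that shares 2 bases with it and is found in 7.15%. Of the windows not printed, *Ptges3* held the cAMP response element core and *Ptges2* held the E-box. Those of *Ptges*, *Ptger2*, *Ptger3* and *Ptger4* held none of the 5 marked motifs. The unmarked GC box was in the windows of *Ptges3*, *Ptger4*, *Ptgs2*, *Ptges* and *Ptger3*, and in 35.7% of all windows. The unmarked CCAAT box was in those of *Ptger2* and *Ptger4*, and in 37.4% of all windows. The *Tbxas1* window lies wholly within the interval that the count tables give for this gene, as does the *Ptges* window for its gene. The RefSeq start of *Hpgds* also lies inside its gene's interval, as does the GAGGAAG match before it. A match is a run of letters and is not evidence of binding.

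*Ptgs1* was the highest member, and *Ptgs2* was low but above the floor of 3 counts in all 6 libraries (13 to 138 counts). *Ptgs1* (ENSMUSG00000047250, chr2:36230426-36252272, plus strand), the constitutive cyclooxygenase COX-1, measured 588, 753 and 715 CPM in WT against 615, 556 and 695 CPM in Lpcat3 KOMac mice. The genotypes overlapped, and the highest mouse was 1.35-fold above the lowest. The means of 685 ± 86.4 and 622 ± 69.7 CPM (SD, n = 3 each) gave a log2 fold change of -0.14 with a 95% interval from -0.48 to 0.20. Per kilobase of exon its level stood at percentile 98.3 of all genes tested. *Gm43621* on the other strand shares 148 exonic bases with it but had at most 491 counts, against at least 28841 for *Ptgs1*.

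*Ptgs2* (ENSMUSG00000032487, chr1:150100031-150108227, plus strand), the inducible cyclooxygenase COX-2, measured 0.200, 0.499 and 2.23 CPM in WT against 1.02, 2.66 and 0.404 CPM in Lpcat3 KOMac mice. High and low mice occurred in both genotypes, WT mouse 3 and Lpcat3 KOMac mouse 2 being the highest, and the range was 13.3-fold. The spread within genotypes was 1.49 on the log2 scale, larger than in 95% of all genes tested, so that the log2 fold change of 0.49 had a 95% interval from -2.12 to 3.10. The antisense transcripts *Ptgs2os* and *Ptgs2os2* had 0 and at most 5 counts. The level of *Ptgs1* per kilobase of exon was 3465, 1778 and 378 times that of *Ptgs2* in WT mice 1 to 3 and 714, 246 and 2030 times in Lpcat3 KOMac mice 1 to 3. In every mouse *Ptgs2* therefore made up between 0.029 and 0.404% of the cyclooxygenase level per kilobase.

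**Figure D1:**
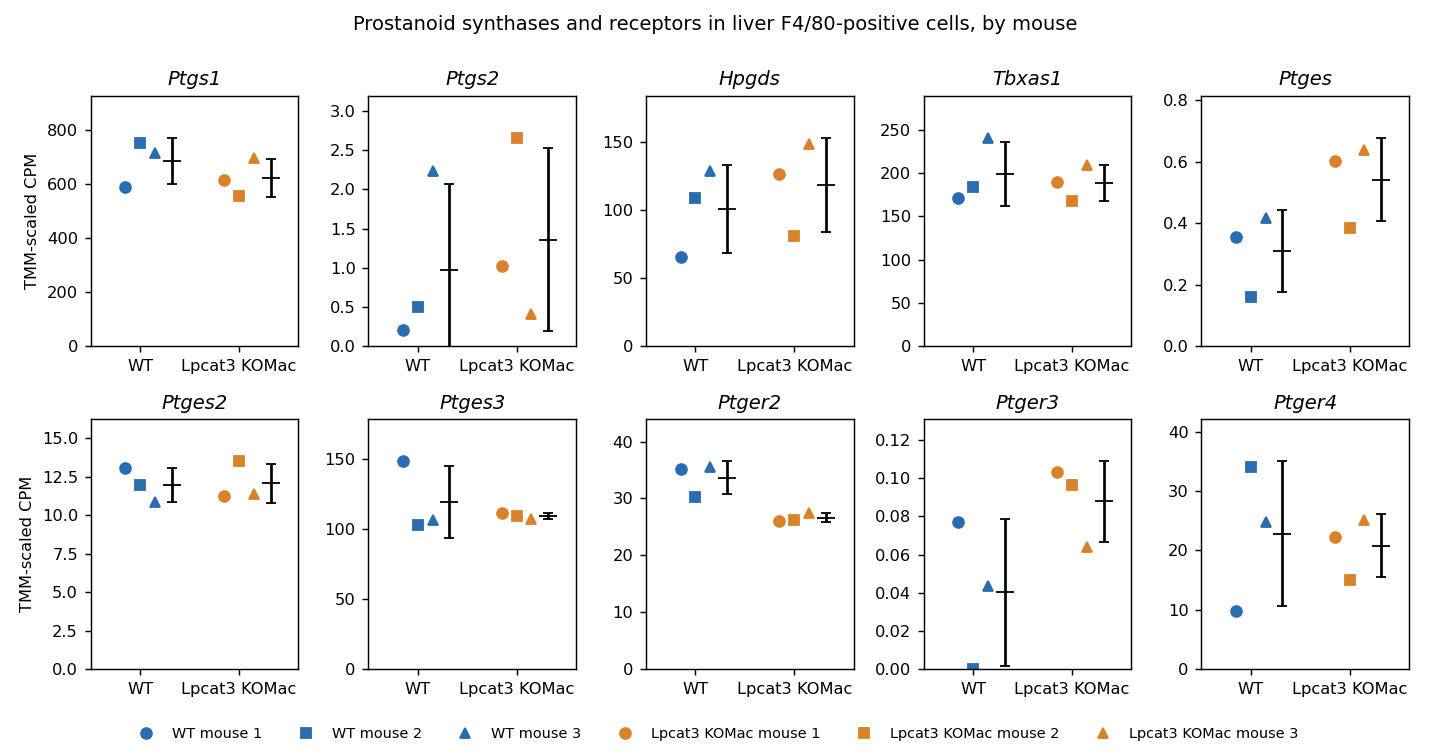
Level of each of the 10 members in TMM-scaled CPM (linear axes from 0, one scale per gene) for WT and Lpcat3 KOMac mice, with 1 symbol per mouse and bars for the mean and SD of 3 mice. In *Ptger2* alone the genotypes do not overlap, with WT mice at 30.3 CPM or above and Lpcat3 KOMac mice at 27.5 CPM or below. The same lack of overlap was found in 7.49% of all genes tested. The SD bar of WT mice for *Ptgs2* (0.977 ± 1.10 CPM) runs below 0 and is cut there.

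Of the terminal synthases, those for prostaglandin D2 and thromboxane and the cytosolic prostaglandin E synthase were well expressed, and the inducible prostaglandin E synthase was near the low end of detection. *Hpgds* (ENSMUSG00000029919, chr6:65117293-65144908, minus strand), the hematopoietic prostaglandin D synthase, measured 65.1, 109 and 128 CPM in WT against 126, 80.9 and 149 CPM in Lpcat3 KOMac mice. The genotypes overlapped, and the lowest mouse of each genotype was the one with the most hepatocyte transcripts. The means of 101 ± 32.3 and 119 ± 34.5 CPM (SD, n = 3 each) differed by 0.24 on the log2 scale (95% interval -0.57 to 1.04), and by 0.0024 without WT mouse 1. *Tbxas1* (ENSMUSG00000029925, chr6:38875404-39084585, plus strand), the thromboxane A synthase, measured 171, 184 and 241 CPM in WT against 189, 168 and 210 CPM in Lpcat3 KOMac mice. Here too the genotypes overlapped, with a log2 fold change of -0.07 (95% interval -0.47 to 0.32). The ratio of *Hpgds* to *Tbxas1* per kilobase was between 0.538 and 1.00 in the 6 mice. The ratio of *Tbxas1* to *Ptgs1* was between 0.104 and 0.144. Both ratios hold for merged exons and depend on that choice. With the longest coding transcript as length, the mean of *Tbxas1* rose from 21.3 to 97.4 CPM per kilobase. That of *Hpgds* rose from 17.1 to 31.5 and that of *Ptgs1* from 168 to 228. *Gm42962* on the other strand shares 144 exonic bases with *Tbxas1* and had at most 39 counts, against at least 8704 for *Tbxas1*. *Hipk2* on the other strand overlaps its interval, with 0 shared exonic bases in the count tables.

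The prostaglandin E synthases differed widely in level. *Ptges3* (ENSMUSG00000071072, chr10:128058954-128077272, plus strand), the cytosolic prostaglandin E synthase that is also the HSP90 co-chaperone p23, measured 149, 103 and 107 CPM in WT against 111, 109 and 107 CPM in Lpcat3 KOMac mice. WT mouse 1 stood above the other 5, which lay close together. The processed pseudogene *Ptges3-ps* on chromosome 6 had between 459 and 1068 counts, against 4875 to 9652 for *Ptges3*, so the division of reads between these copies is uncertain. *Ptges2* (ENSMUSG00000026820, chr2:32395896-32405772, plus strand), the membrane-associated PGE synthase-2, measured 13.1, 11.9 and 10.9 CPM in WT against 11.3, 13.5 and 11.4 CPM in Lpcat3 KOMac mice. Its genotype means differed by 0.01 on the log2 scale (95% interval -0.32 to 0.34), the smallest difference among the 9 members tested. Its highest mice were the pair with the most hepatocyte transcripts. *Ptges3* was between 18.5 and 25.9 times *Ptges2* per kilobase.

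*Ptges* (ENSMUSG00000050737, chr2:30889471-30929863, minus strand), the inducible microsomal synthase mPGES-1 that works with COX-2, had 23, 8 and 19 counts in WT mice 1 to 3 and 35, 20 and 30 counts in Lpcat3 KOMac mice 1 to 3. These are 0.354, 0.160 and 0.416 CPM in WT and 0.603, 0.386 and 0.637 CPM in Lpcat3 KOMac mice, and the genotypes overlapped through WT mouse 3 and Lpcat3 KOMac mouse 2. The log2 fold change was 0.80 (standard error 0.44, 95% interval -0.28 to 1.88), the largest in size among the 9 members tested, but it did not pass the test (unadjusted p = 0.119, edgeR). Pooled over 3 mice, the level was 0.311 CPM in WT (exact Poisson 95% interval 0.231 to 0.410) and 0.541 CPM in Lpcat3 KOMac cells (0.433 to 0.670). These intervals cover counting error only and leave out the spread between mice. *Hpgds* was between 113 and 416 times *Ptges* per kilobase of merged exon.

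Among the receptors, *Ptger2* was lower in every Lpcat3 KOMac mouse than in every WT mouse, as were 5.2% of all genes tested. The difference did not pass the test over all genes. *Ptger2* (ENSMUSG00000037759, chr14:44988195-45003820, plus strand), which encodes the Gs-coupled EP2 receptor, measured 35.2, 30.3 and 35.4 CPM in WT against 26.1, 26.2 and 27.5 CPM in Lpcat3 KOMac mice. The means were 33.7 ± 2.91 and 26.6 ± 0.778 CPM (SD, n = 3 each), so that Lpcat3 KOMac cells held 79.0% of what WT cells held. On the log2 scale they differed by -0.34 (standard error 0.09, 95% interval -0.57 to -0.11), with an unadjusted p of 0.0119 and an adjusted p of 1 in edgeR. The exact two-sided permutation test gave p = 0.1, the smallest that 3 mice against 3 allow. The spread of *Ptger2* within genotypes was small, 0.0952 on the log2 scale, at percentile 12.0 of all genes tested. The unadjusted p in edgeR was 0.0568 with total counts in place of TMM, 0.0673 without Lpcat3 KOMac mouse 1 and 0.0529 without Lpcat3 KOMac mouse 2. Without WT mouse 1 and Lpcat3 KOMac mouse 2, which had the most hepatocyte transcripts, the log2 fold change was -0.29. The libraries kept still differed by genotype in hepatocyte markers, at 1782 and 1752 CPM in WT and 4543 and 4468 CPM in Lpcat3 KOMac mice. The summed neutrophil markers were higher in every Lpcat3 KOMac mouse (4.15 to 5.40 CPM) than in every WT mouse (1.96 to 2.95 CPM), with *Ly6g* at 3 counts or fewer in all libraries. *S100a8* was higher in every Lpcat3 KOMac mouse, as were 2.29% of all genes tested. *S100a9* and *Retnlg* overlapped between the genotypes, and *Mpo* had at most 9 counts. *Retnlg* was at 2.12, 0.328 and 0.276 CPM in Lpcat3 KOMac mice 1 to 3, against 0.319 to 0.853 CPM in WT. The mast cell and basophil markers were also higher in every Lpcat3 KOMac mouse, but 4 of those 5 were at the floor in all libraries and the sum was at most 0.193 CPM. The part of either list in the *Ptger2* values was not tested.

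*Ptger4* (ENSMUSG00000039942, chr15:5206661-5244187, minus strand), which encodes the other Gs-coupled receptor EP4, measured 9.74, 34.0 and 24.7 CPM in WT against 22.3, 14.9 and 25.2 CPM in Lpcat3 KOMac mice. WT mouse 1 and Lpcat3 KOMac mouse 2 were the lowest and WT mouse 2 the highest, a 3.49-fold range in which the genotypes overlapped. The log2 fold change was -0.13 with a 95% interval from -1.30 to 1.03. *Ttc33* on the other strand shares 82 exonic bases with *Ptger4* and had up to 1729 counts, against 633 to 1702 for *Ptger4*, so reads in that stretch cannot be told apart without knowledge of strand. The level of *Ptger2* per kilobase was 6.53, 1.61 and 2.59 times that of *Ptger4* in WT mice 1 to 3 and 2.11, 3.16 and 1.97 times in Lpcat3 KOMac mice 1 to 3. Per kilobase of merged exon *Ptger2* was thus the higher of the pair in all 6 mice. In CPM alone, *Ptger4* was the higher in WT mouse 2 (34.0 against 30.3 CPM). With the longest coding transcript as length, the mean of *Ptger4* was 6.58 CPM per kilobase, nearer to *Ptger2* at 8.18. The order in all 6 mice therefore depends on the length used.

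*Ptger3* (ENSMUSG00000040016, chr3:157566892-157645888, plus strand), which encodes the Gi-coupled EP3 receptor, had 5, 0 and 2 counts in WT mice 1 to 3 and 6, 5 and 3 counts in Lpcat3 KOMac mice 1 to 3. It exceeded 3 counts in 3 of the 6 libraries and was left out of the test by the filter on low counts. A count of 0 in WT mouse 2 allows a level of up to 0.0599 CPM. The pooled levels were 0.0435 CPM in WT (exact Poisson 95% interval 0.018 to 0.090) and 0.0892 CPM in Lpcat3 KOMac cells (0.049 to 0.150), intervals that overlap.

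Ordered by their mean level per kilobase of exon, the members ran *Ptgs1* (168 CPM per kilobase), *Ptges3* (51.6), *Tbxas1* (21.3), *Hpgds* (17.1), *Ptger2* (8.18), *Ptger4* (3.28), *Ptges2* (2.38), *Ptgs2* (0.255), *Ptges* (0.108) and *Ptger3* (0.011). The ranges of 3 neighbouring pairs overlapped. *Tbxas1* was above *Hpgds* in 5 of 6 mice, *Ptger4* above *Ptges2* in 4 of 6 and *Ptgs2* above *Ptges* in 4 of 6. For the other neighbours the lowest mouse of the higher gene was above the highest mouse of the lower gene. *Tbxas1* changed place when the length of the longest coding transcript was used in place of all merged exons, standing at 97.4 CPM per kilobase and above *Ptges3* at 57.2. The remaining ranks of the means were the same with both lengths. The order within single mice was read with merged exons only. The 10 members together took up between 0.094 and 0.129% of all counts.

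**Figure D2:**
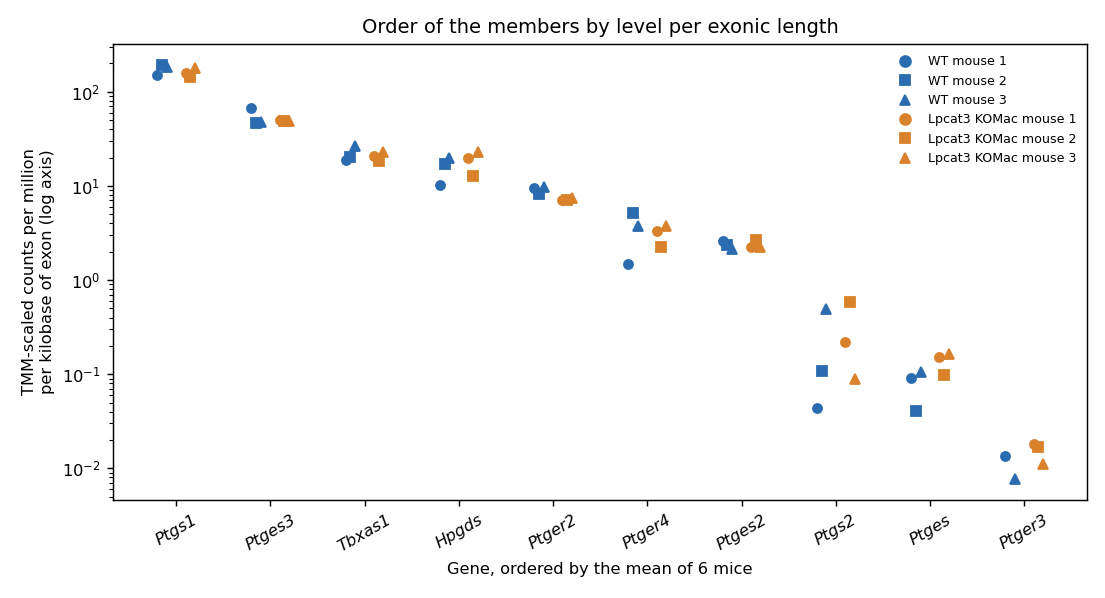
Level of each member per kilobase of exon (TMM-scaled CPM per kilobase, log axis) in the 6 mice, ordered from the highest mean to the lowest. *Ptgs1* lies above every other member in every mouse, *Ptgs2*, *Ptges* and *Ptger3* lie below the remaining 7, and WT mouse 2 is not drawn for *Ptger3*, where it had 0 counts.

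Comparing the genotypes over the 9 members tested, 0 passed an adjusted p of 0.05 in edgeR's quasi-likelihood test, as did 0 (0%) of all 16134 genes tested. The targeted gene *Lpcat3* did not pass in that fit either, at a log2 fold change of -1.56. A member that did not pass may therefore still differ. DESeq2 and limma-voom also called 0 members. At an unadjusted p under 0.05, 1 of 9 members passed, *Ptger2*, against 2.64% of all genes (1.57% with Lpcat3 KOMac lower and 1.07% with it higher). The genotypes did not overlap in 1 of 9 members, again *Ptger2*, against 7.49% of all genes (5.2% with Lpcat3 KOMac lower and 2.29% with it higher). Of the 9 log2 fold changes, 4 were above and 5 below 0, against 6466 above and 9668 below for all genes. The median was -0.07 against -0.04 for all genes. For 5 of the 9, *Ptgs1*, *Tbxas1*, *Ptges2*, *Ptges3* and *Ptger2*, the 95% interval lay within a 1.5-fold change either way. The same held for 6974 of all 16134 genes tested. For *Hpgds*, *Ptger4*, *Ptgs2* and *Ptges* it did not.

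**Figure D3:**
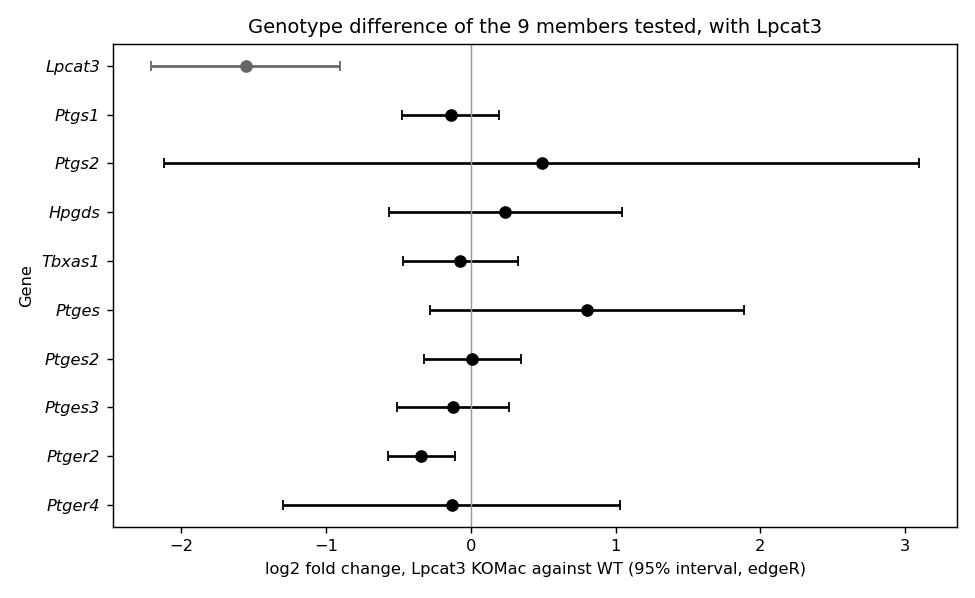
Log2 fold change, Lpcat3 KOMac against WT, with its 95% interval from edgeR, for *Lpcat3* (grey) and the 9 members tested (black). The intervals of *Lpcat3* (at -1.56) and *Ptger2* (-0.57 to -0.11) lie below 0, that of *Ptgs2* is the widest (-2.12 to 3.10), and the others include 0.

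Several members were lowest, in each genotype, in the mouse with the most hepatocyte transcripts. In *Ptgs1*, *Tbxas1*, *Hpgds* and *Ptger4*, 4 of the 9 members tested, the lowest pair of mice was WT mouse 1 with Lpcat3 KOMac mouse 2, the pair with the most hepatocyte transcripts. The same held for 22.9% of all genes tested. The mean of the other 4 mice was 1.21 times that of this pair for *Ptgs1*, 1.21 times for *Tbxas1*, 1.75 times for *Hpgds* and 2.15 times for *Ptger4*. *Ptges2* was the 1 member in which this pair was the highest, against 21.8% of all genes. For *Ptger2* the ratio was 0.972. With the hepatocyte transcripts as a covariate, 2 of the 9 members had an unadjusted p under 0.05 in edgeR, against 9.71% of all genes tested in that fit. They were *Hpgds*, with a log2 fold change of 0.46 (unadjusted p = 0.0208, adjusted p = 0.448, edgeR), and *Ptger2*, with -0.35 (unadjusted p = 0.00788). The log2 fold change of *Hpgds* was 0.22 without both hepatocyte-rich libraries (unadjusted p = 0.163, edgeR). In the libraries kept, hepatocyte markers were higher in both Lpcat3 KOMac mice (4543 and 4468 CPM) than in both WT mice (1782 and 1752 CPM). Genotype and hepatocyte transcripts therefore cannot be told apart in that fit. The part of the hepatocyte transcripts in these levels was not tested beyond this.

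**Figure D4:**
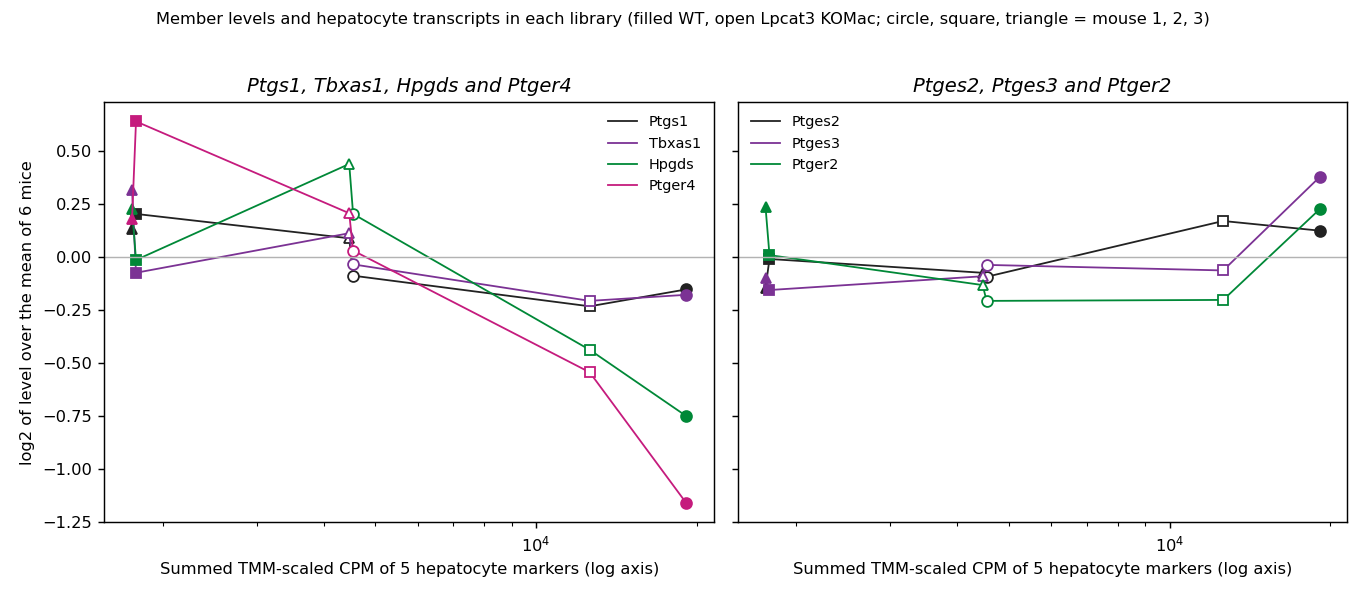
Log2 of each mouse's level over the mean of the 6 mice, against the summed level of 5 hepatocyte markers (TMM-scaled CPM, log axis), for *Ptgs1*, *Tbxas1*, *Hpgds* and *Ptger4* (left) and for *Ptges2*, *Ptges3* and *Ptger2* (right), with lines joining the mice of 1 gene. On the left the lowest values are at the right end of the axis, in Lpcat3 KOMac mouse 2 (12599 CPM) and WT mouse 1 (19105 CPM). On the right *Ptger2* is higher in every WT mouse than in every Lpcat3 KOMac mouse. The low end of the axis holds only WT mice 2 and 3 (1782 and 1752 CPM).

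The other genes of prostanoid metabolism were read from a list of 21, covering the release of arachidonic acid, the remaining synthases and receptors, transport and breakdown. Of these, 16 could be tested, 0 passed an adjusted or an unadjusted p of 0.05 in edgeR, and 0 were called by DESeq2 or limma-voom. Their log2 fold changes were above 0 in 5 and below 0 in 11, with a median of -0.07. Of all 16134 genes tested, 6466 were above and 9668 below 0. The genotypes did not overlap in 1 of the 16, against 7.49% of all genes tested. This was *Ptgfrn* (log2 fold change 0.95, standard error 0.51), named here for that reason after its values had been seen. The highest of the list per kilobase was *Hpgd*, which encodes the dehydrogenase that inactivates prostaglandins. It measured 933, 1190 and 833 CPM in WT against 778, 755 and 957 CPM in Lpcat3 KOMac mice. At 539 CPM per kilobase it was above *Ptgs1*, and the genotypes overlapped, differing by -0.25 on the log2 scale (standard error 0.17). The next were *Cbr1*, a carbonyl reductase, *Pla2g4a*, the cytosolic phospholipase that frees arachidonic acid, and *Prxl2b*, a prostamide and prostaglandin F synthase. Their log2 fold changes were -0.15, -0.14 and -0.11, and the genotypes overlapped in each. This order holds for merged exons. With the longest coding transcript as length, *Akr1b3*, an aldose reductase, stood second at 94.7 CPM per kilobase (15.7 with merged exons).

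The receptors pass their signal through G proteins and cAMP, and 17 genes of that route were all tested. Of these, 0 passed an adjusted or an unadjusted p of 0.05 in edgeR, and 0 were called by DESeq2 or limma-voom. The median log2 fold change was -0.03, with 6 above and 11 below 0, against 6466 above and 9668 below for all genes tested. The highest per kilobase were *Gnai2*, an inhibitory G protein subunit (707 ± 86.7 CPM in WT and 635 ± 39.4 CPM in Lpcat3 KOMac cells, SD, n = 3 each), *Prkar1a*, the regulatory subunit of protein kinase A, *Adcy4*, an adenylyl cyclase, and *Gnai3*. With the longest coding transcript as length, *Gnas*, the stimulatory subunit used by EP2 and EP4, stood second at 72.1 CPM per kilobase (25.4 with merged exons), and *Adcy7* (41.7) stood just above *Gnai3* (40.7). *Adcy4* measured 141, 243 and 149 CPM in WT against 126, 106 and 128 CPM in Lpcat3 KOMac mice. It was the 1 gene of the 17 in which the genotypes did not overlap, against 7.49% of all genes tested (5.2% with Lpcat3 KOMac lower). The difference was -0.56 on the log2 scale (standard error 0.23, unadjusted p = 0.0532, edgeR), and -0.27 without WT mouse 2, the highest. *Prkar1a* and *Gnai3* had log2 fold changes of -0.03 and -0.01.

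**Figure D5:**
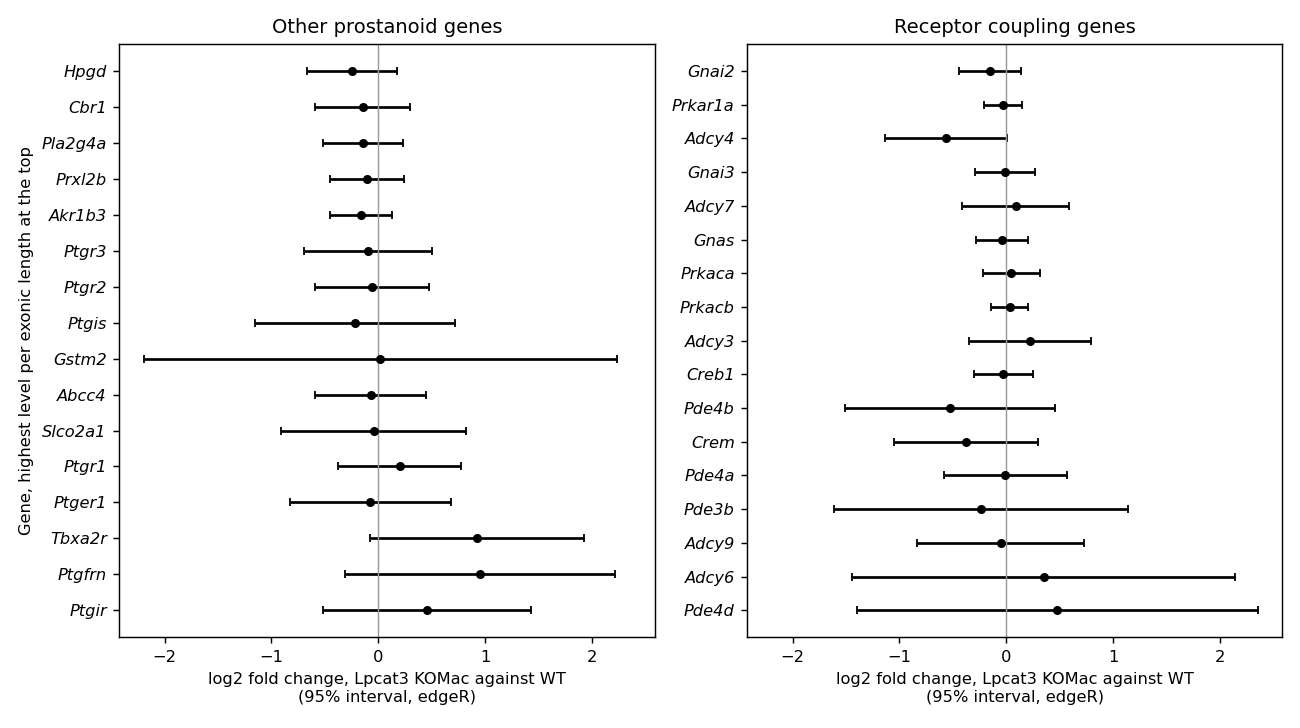
Log2 fold change, Lpcat3 KOMac against WT, with its 95% interval from edgeR, for the 16 other prostanoid genes tested (left) and the 17 receptor coupling genes (right), the highest level per exonic length at the top. No interval of either list lies wholly to one side of 0, and the nearest to that is *Adcy4* at -0.56.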

How the data were processed

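RNA of liver F4/80-positive cells from 3 WT and 3 Lpcat3 KOMac mice was read as poly-A libraries, 1 per mouse. The authors deposited raw read counts for 49315 Ensembl genes and each gene's merged exonic length. The submitters' processing notes name Trimmomatic 0.36, STAR 2.5.2b, featureCounts of Subread 1.5.2 and GRCm38, while the strand and multiple-mapping settings are not given in the sources used here. Reads of overlapping genes and of near-identical copies are therefore uncertain.

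Counts were fitted with edgeR 4.0.16 in R 4.3.3 (TMM, default filter with minimum count 10, robust quasi-likelihood test, genotype as the only term), with Benjamini-Hochberg adjustment over 16134 genes. Single genes were also compared by the exact two-sided permutation test on log2 CPM, whose smallest p is 0.1. CPM were TMM-scaled, divided by exonic length where genes were compared. The floor was 3 counts in a library, and total counts were 44954224 to 71392812. Of the gene IDs, 49056 were in GENCODE M21, which gave symbols, 44858 of them at identical positions. Promoter windows were those of RefSeq on GRCm38.p6. The labels say no more of the replicates than their numbers, so p-values measure the spread between these libraries. Every pair of libraries differed by more than sampling noise.

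The members and lists were chosen with earlier results of these data known. Named were all members, *Lpcat3*, the 4 genes highest per exonic length of each list, list genes at an unadjusted p under 0.05, and genes overlapping a member. The fit was tested on simulated data. Alternatives were DESeq2 1.42.0 and its size factors, total counts, other count filters, limma-voom (limma 3.58.1), no robust dispersion, a replicate block, a hepatocyte covariate and each mouse left out. Added after seeing the data were leaving out both hepatocyte-rich libraries and another gene length.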

Additional observations from a re-analysis of the deposited data

How the results depend on the processing

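No member was called under any of the alternatives run, by edgeR, DESeq2 or limma-voom. DESeq2 called 15 genes in all, against 0 in edgeR, and *Lpcat3* was among them (log2 fold change -1.55, adjusted p = 0.0028), while with each mouse left out its log2 fold change lay between -1.85 and -1.39. The log2 fold changes of the 17 other named genes kept their direction in 241 of 271 cases and turned in 30, given below. *Ptger2* lay between -0.41 and -0.25 throughout. *Ptgs1*, *Hpgds* and *Ptges* kept their sign but not their size, and with each mouse left out ranged from -0.24 to -0.047, 0.0024 (without WT mouse 1) to 0.47 (without Lpcat3 KOMac mouse 2) and 0.49 to 1.05. Total counts in place of TMM moved the median log2 fold change of all genes by 0.10, and turned *Tbxas1* to 0.012, *Gnai3* to 0.089 and *Prkar1a* to 0.064. *Gnai3* was at 0.00016 with DESeq2's size factors, 0.00010 in DESeq2 and 0.081 without both hepatocyte-rich libraries. Without those libraries *Ptgs2* was at -0.92, *Ptges3* at 0.066 and *Ptges2* at -0.0071. Limma-voom gave *Ptges2* -0.0028 and *Ptger4* 0.065, and the hepatocyte covariate gave *Tbxas1* 0.0046, *Ptges2* -0.041 and *Ptger4* 0.30. With each mouse left out, log2 fold changes ranged from -0.22 to 0.065 for *Ptges3*, -0.060 to 0.081 for *Gnai3*, -0.50 to 0.27 for *Ptger4*, -0.26 to 0.029 for *Pla2g4a*, -0.064 to 0.096 for *Ptges2*, -0.17 to 0.088 for *Tbxas1*, -0.058 to 0.019 for *Prkar1a*, -0.29 to 0.018 for *Cbr1* and -0.41 to 1.97 for *Ptgs2*. The cause of these changes was not tested. The deviations of same-numbered mice from their genotype means correlated at r of -0.30, -0.60 and 0.36. The labels do not say whether the numbers pair the mice, and so few pairs cannot decide it. With the replicate number as a block edgeR called 0 genes and 0 members, and *Ptger4* was at 0.011. *Ptges* could not be fitted with at least 10 counts in every library, and DESeq2 gave it no adjusted p. Depth limits *Ptger3*, which was too low to be tested, and *Ptges*, with 8 to 35 counts in a library.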

Other observations

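The level of the receptors for prostaglandins other than E2 was read in the same libraries, by genes named after their values had been seen. Both receptors for prostaglandin D2, *Ptgdr* and *Ptgdr2*, had 3 counts or fewer in every library, as did the lipocalin-type prostaglandin D synthase *Ptgds*, while the hematopoietic synthase *Hpgds* was at 65.1 CPM or more in all 6. The thromboxane receptor *Tbxa2r* measured 1.08, 0.479 and 0.722 CPM in WT against 1.52, 1.83 and 0.999 CPM in Lpcat3 KOMac mice, a log2 fold change of 0.93 (standard error 0.41) that did not pass the test (unadjusted p = 0.0639, edgeR). The prostacyclin receptor *Ptgir* measured 0.585, 0.519 and 1.05 CPM in WT against 1.12, 0.675 and 1.15 CPM in Lpcat3 KOMac mice, with overlapping genotypes and a log2 fold change of 0.45 (unadjusted p = 0.297, edgeR). The prostaglandin F receptor *Ptgfr* had at most 10 counts in any library. *Ptger1*, the fourth receptor for prostaglandin E2, measured 5.40, 9.42 and 11.2 CPM in WT against 8.23, 6.69 and 9.75 CPM in Lpcat3 KOMac mice, with overlapping genotypes.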
